A study of Mus musculus with 13 samples.

Results

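The genes described here encode 10 plasma proteins of the acute phase, the serum amyloid A proteins (Saa1, Saa2, Saa3 and Saa4), lipocalin 2 (Lcn2), haptoglobin (Hp), hemopexin (Hpx), the orosomucoids (Orm1 and Orm2) and serum amyloid P component (Apcs). They were chosen by name and found among 23725 genes by their Entrez identifiers. All 10 passed the filter on low counts in each comparison. Liver RNA of 13 male C57 mice aged 3 months was sequenced, from 5 mice without bile duct ligation (no BDL), 4 ligated mice that received a control oligonucleotide (miR-Ctrl BDL) and 4 ligated mice that received an inhibitor of the microRNA miR-873-5p (anti-miR-873-5p BDL). BDL is an operation that closes the bile duct, so that bile backs up into the liver. The oligonucleotides were injected on days 3 and 5 after the operation at 60 µg per mouse, and livers were taken on day 7. The labels call the no BDL mice non treated and name no sham operation, so the operation, the ligation and the injections cannot be told apart as sources of a difference from this group. Read counts per gene were deposited in 3 tables, 1 for each pair of groups, and the table of both BDL groups holds 3 mice per group, since miR-Ctrl mouse 3 is absent and so is mouse 2 of the anti-miR-873-5p group.

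The acute-phase response is the change in the plasma proteins made by the liver after injury, infection or inflammation. Macrophages and other cells release interleukin-6 and interleukin-1, hepatocytes receive them through receptors that act on the transcription factors STAT3, NF-kB and C/EBP, and the hepatocytes then secrete more of some plasma proteins and less of others. Serum amyloid A and the orosomucoids are among the strongest responders in mice, hemopexin and haptoglobin capture free heme and hemoglobin, and lipocalin 2 withholds iron from bacteria.

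One mouse went against its group before any comparison was made. Levels are given as CPM, a gene's counts relative to the library's total after TMM scaling of all 13 libraries. No BDL mouse 5 lay above the other 4 no BDL mice for all 10 genes, and it lay above every BDL mouse for Saa1, Saa2 and Saa4. By library size alone, miR-Ctrl mouse 3 lay above it for Saa1 (5709 against 4781) and Saa2 (5287 against 5074). In CPM, levels of mouse 5 were 104-fold the mean of the other 4 no BDL mice for Saa1, 213-fold for Saa2, 98.6-fold for Saa3 and 123-fold for Lcn2. Among the rest they ran from 3.05-fold for Saa4 to 11.1-fold for Orm2. The summed level of the 13 macrophage markers was also higher in this mouse, at 809.9 CPM against 143 to 383 in the other no BDL mice, and that of the neutrophil markers was 23.9 against 8.68 to 14.2. The summed cholangiocyte markers, which were higher in every BDL mouse, were 37.2 in it and 36.1 to 47.3 in the others. What set this mouse apart was not tested, and the fold changes of the 10 genes are given with and without it.

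Totals ran from 12185333 to 19689037 counts per mouse. The 20 most abundant genes took 30.6 to 41.0% of the counts in no BDL mice and 18.3 to 23.2% in BDL mice. Scaling by library size alone therefore moved the all-gene median on the log2 scale to 0.79 for miR-Ctrl BDL and to 0.82 for the anti-miR-873-5p group relative to no BDL mice, and changes are reported relative to TMM, where this median was -0.01 in both. Summed levels of 13 neutrophil and 10 cholangiocyte markers were higher in every BDL mouse than in any no BDL mouse, with ranges of 26.9 to 305 and 68.1 to 169.9 over both BDL groups. Those of the 13 macrophage markers were 573 to 2195 in BDL, above no BDL mice 1 to 4, while mouse 5 lay above mice 1 and 2 of the inhibitor group. The 11 hepatocyte markers summed to 125622 to 144904 in no BDL and 47346 to 103625 in BDL. The hepatocyte markers include Alb and Ttr, and the macrophage markers include Cd14. These 3 genes are also in the lists of acute-phase proteins below, so the sums are not independent of those lists. In miR-Ctrl mouse 3, Cd14 gave 1025 of the 1898 CPM of the macrophage markers. All these sums depend on the TMM factors, which were 0.62 to 0.86 in no BDL and 1.08 to 1.45 in BDL. Multiplied back by these factors, the hepatocyte sums of no BDL and BDL mice overlapped. Of the pancreas markers, Prss1, Cpa1, Pnlip, Ins1, Ins2 and Reg1 had no count in any mouse, and of the adipocyte markers the same held for Lep. The 8 adipocyte markers in the tables summed to 878 to 3838 in no BDL and 24.3 to 568 in BDL. This sum does not describe the list, since Adipoq, Plin1 and Lep had no count in no BDL mice 1 to 4. Of the 4 adipocyte markers tested, 3 had a positive log2 fold change in each comparison with no BDL. The 10 mesothelial and fibroblast markers summed to 127 to 185 in no BDL and 276 to 989 in BDL. The part of these cell types in the results below was not tested, and in bulk RNA a change in the number of cells of a type and a change in RNA per cell cannot be told apart.

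**Figure D1:**
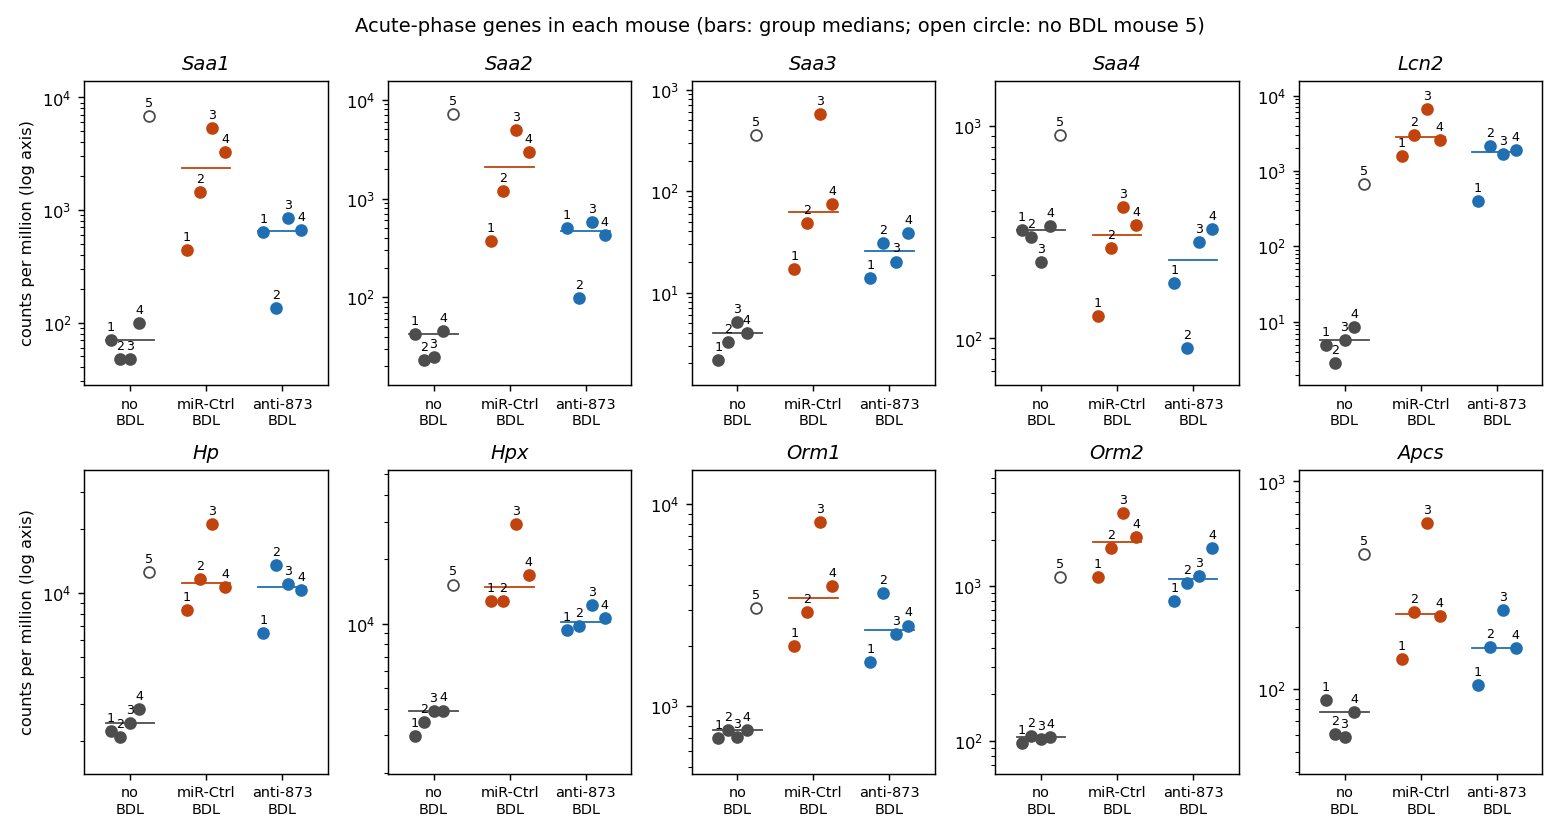
Level of each acute-phase gene in each mouse, in CPM on a log axis, for the 5 no BDL mice, the 4 miR-Ctrl BDL mice and the 4 mice given anti-miR-873-5p (anti-873). Numbers name the mouse within its group, bars are group medians, and the open circle is no BDL mouse 5, which lies above the other 4 no BDL mice in all 10 panels, while miR-Ctrl mouse 3 is the highest BDL mouse in all 10.

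The 10 genes together took 0.39, 0.40, 0.60 and 0.53% of all counts in no BDL mice 1 to 4 and 3.14% in mouse 5. In miR-Ctrl BDL they took 3.29, 4.39, 7.89 and 4.82%, and in anti-miR-873-5p BDL 2.24, 3.14, 3.70 and 3.86%. Every BDL mouse was above the first 4 no BDL mice, and mouse 5 lay within the range of the BDL mice. Albumin, the most abundant plasma protein, took 4.50 to 7.10% of the counts in no BDL and 3.38 to 7.16% in BDL, so that these shares overlapped. Shares of all counts are not TMM scaled. Divided by the TMM factors, the albumin share was lower in every BDL mouse than in any no BDL mouse.

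Compared with no BDL, miR-Ctrl BDL livers had called higher levels of 3 of the 10 genes, Hpx, Orm1 and Orm2, at an adjusted p of 0.05 over all genes in edgeR's quasi-likelihood test. The share of all 13072 genes called higher was 19.1%, and 16.6% were called lower. Under scaling by library size alone, 9360 genes were called higher and 275 lower in place of 2491 and 2175, and for the inhibitor 10063 and 131 in place of 1715 and 1108. Without no BDL mouse 5, 9 of the 10 were called higher, all but Saa4, beside 20% of 13010 genes. Mouse 5 was set apart by its high levels of these same 10 genes, so leaving it out favours a call of higher for them. All p values of the 10 genes and their ratios without mouse 5 carry this choice and are not independent evidence. The share of all genes was not chosen in this way. In anti-miR-873-5p BDL, 0 of 10 passed the test with all mice, beside 13.1% of 13130 genes called higher and 8.44% called lower, and 9 of 10 were called higher without mouse 5, again all but Saa4, beside 14.5% of 13031 genes. The median log2 fold change of the 10 genes was 1.42 in miR-Ctrl BDL with all mice and 3.42 without mouse 5, and the other BDL group had medians of 0.52 and 2.49, while the median of all genes was -0.01 in all 4 fits. Both comparisons use the same no BDL mice, so they are not independent of each other. For 9 of the 10 genes, all 8 BDL mice lay above no BDL mice 1 to 4, and for 0 of the 10 did all 8 lie above all 5 no BDL mice. How many of all genes separated in this way was not counted, so the separation cannot be called particular to the 10.

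**Figure D2:**
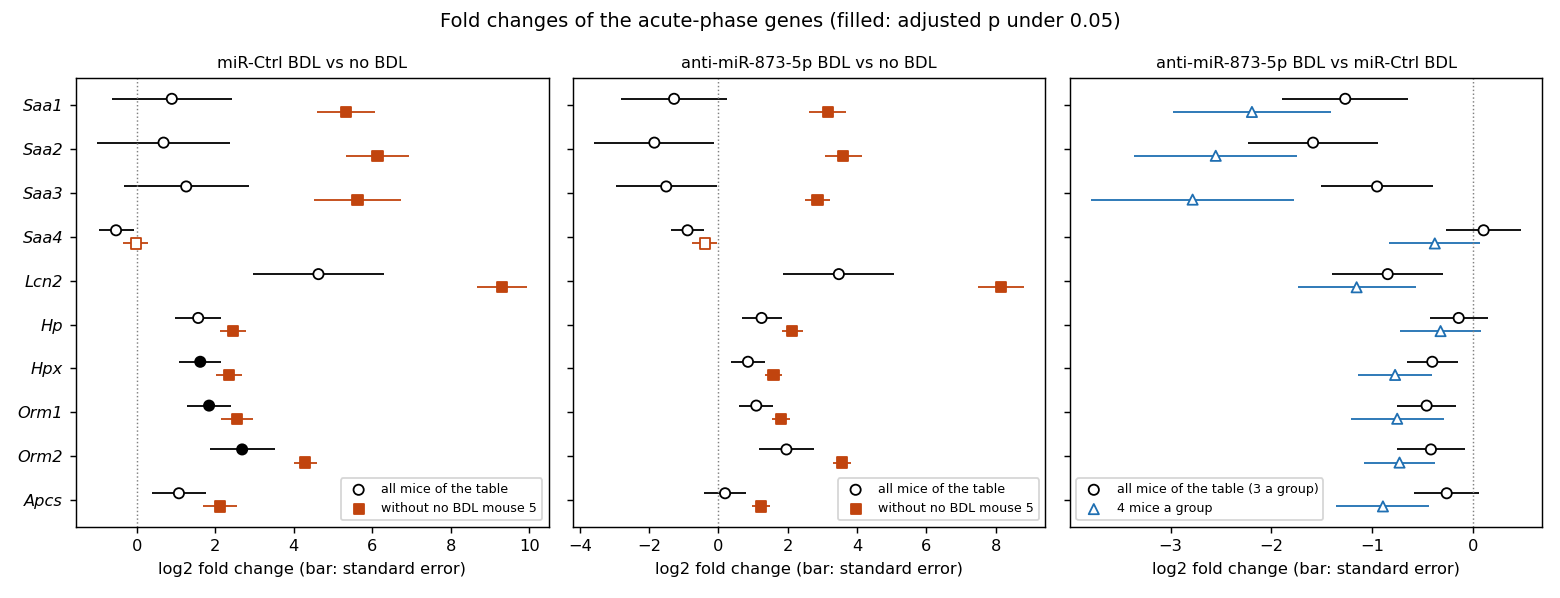
Log2 fold change of each acute-phase gene in the 3 comparisons, with bars of 1 standard error and filled symbols for an adjusted p under 0.05. Circles use all mice of the deposited table, squares leave out no BDL mouse 5, and triangles use 4 mice in each BDL group. Without mouse 5 the squares of 9 genes are filled in both comparisons with no BDL, and no symbol is filled between the BDL groups.

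Saa1 and Saa2 encode the serum amyloid A proteins that travel in plasma on high-density lipoprotein. In GRCm38, Saa1 (Entrez 20208) spans chromosome 7, 46740497 to 46743181, and Saa2 (20209) beside it from 46751833 to 46754313. RefSeq lists each symbol as an older name of the other, so the identifiers decide which gene is meant. Of the 50-base windows of the principal Saa1 transcript, 14.8% also occur in another gene, mostly Saa2, and 9.12% of those of Saa2 occur in Saa1, so reads of the shared stretches could be counted on either gene. The 250 bases before the start sites of the 2 genes are 94.8% identical when aligned, against 46.8 to 52.4% for the other pairs of serum amyloid A genes. The sequence around a match to the C/EBP pattern TTGCNNAA, searched on both strands, is shown in the direction of transcription for the SAA genes with the match in capitals, because C/EBP factors relay the cytokine signal to acute-phase promoters. The matches start at position -182 of Saa1, -183 of Saa2, -99 of Saa3 and -52 of Saa4, counted from the start site, and Saa4 holds a further match at -245.
Saa1, chr7:46743144-46743173, minus strand: ctgtgctcccaTTGCACAAtgagggagaat
Saa2, chr7:46751639-46751668, plus strand: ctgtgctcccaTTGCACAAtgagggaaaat
Saa3, chr7:46715757-46715786, minus strand: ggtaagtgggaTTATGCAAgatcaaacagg
Saa4, chr7:46732637-46732666, minus strand: accaggaaggaTTGAGCAAgagggactctg
The sequences are from RefSeq on GRCm38.p6, and the RefSeq spans of Saa1 and Saa3 reach past the start sites used here.

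Saa1 had 69.4, 47.7, 47.8 and 98.3 CPM in no BDL mice 1 to 4 and 6823 in mouse 5. The miR-Ctrl BDL mice had 438, 1453, 5306 and 3295, and those given anti-miR-873-5p had 642, 135, 841 and 668. On this TMM scale all BDL mice were above the first 4 no BDL mice and below mouse 5, and the BDL groups overlapped through miR-Ctrl mouse 1. Against no BDL, Saa1 differed in miR-Ctrl BDL by a log2 fold change of 0.90 ± 1.52 (SE, adjusted p = 0.682 in edgeR) with all mice and 5.33 ± 0.75 (adjusted p = 0.000843) without mouse 5. In anti-miR-873-5p BDL it was -1.28 ± 1.53 (adjusted p = 0.584) and 3.16 ± 0.53 (adjusted p = 0.00497), so that this 1 mouse turned the direction. Saa2 followed the same order, with 23.1 to 45.4 CPM in no BDL mice 1 to 4, 7241 in mouse 5, 368 to 4914 in miR-Ctrl BDL and 98.2 to 573 in anti-miR-873-5p BDL. Its log2 fold change in miR-Ctrl BDL was 0.69 (adjusted p = 0.782), or 6.13 when mouse 5 was left out (adjusted p = 0.000631). For the anti-miR-873-5p group the values were -1.85 (adjusted p = 0.480) and 3.60 (adjusted p = 0.00326).

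The ratio of the 2 genes was compared as well as their level. Counts of Saa1 were 1.63, 2.07, 1.90 and 2.17 times those of Saa2 in no BDL mice 1 to 4 and 0.942 times in mouse 5. The ratio was 1.19, 1.21, 1.08 and 1.11 in miR-Ctrl BDL and 1.28, 1.38, 1.47 and 1.55 in anti-miR-873-5p BDL, and the BDL groups did not overlap. Such a ratio does not depend on how libraries are scaled. The log2 ratio averaged 0.20 ± 0.08 (SD, n = 4) with miR-Ctrl and 0.50 ± 0.12 (SD, n = 4) with the inhibitor, a difference of 0.30 with p = 0.0286 in a two-sided exact permutation test, the smallest that 4 mice against 4 allow. Adjusted over the 9 tests of ratios the exact permutation p was 0.0952, which does not pass the threshold, and with the 3 mice per group of the table of both BDL groups the difference was 0.29 (exact permutation p = 0.1, the smallest possible for 3 against 3). Against no BDL the log2 ratio differed by -0.54 in miR-Ctrl BDL and by -0.24 with the inhibitor (adjusted exact permutation p = 0.143 and 0.469). Without mouse 5 the differences were -0.75 and -0.45, each BDL group lay below the 4 no BDL mice, and the adjusted exact permutation p was 0.0514 for each.

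Saa3, which is made by macrophages and other cells beside hepatocytes, and Saa4, the form of serum amyloid A that circulates without inflammation, are the other members of the family. Saa3 (20210, chromosome 7 from 46711998 to 46719615) had 2.16, 3.24, 5.07 and 4.03 CPM in no BDL mice 1 to 4 and 357 in mouse 5. It had 17.0, 48.9, 575 and 74.6 in miR-Ctrl BDL and 13.8, 30.9, 20.2 and 38.5 in anti-miR-873-5p BDL. Mouse 5 and miR-Ctrl mouse 3 stood far above the rest, and the other 3 miR-Ctrl mice had at most 74.6. Saa3 had a log2 fold change in miR-Ctrl BDL of 1.26 ± 1.59 (SE, adjusted p = 0.573) with all mice, -0.65 without miR-Ctrl mouse 3 and 5.62 ± 1.12 (adjusted p = 0.00445) without no BDL mouse 5. In anti-miR-873-5p BDL it was -1.51 (adjusted p = 0.493) with all mice and 2.86 ± 0.36 (adjusted p = 0.00222) without mouse 5.

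Saa4 (20211, chromosome 7 from 46727992 to 46732603) had 324, 302, 229 and 337 CPM in no BDL mice 1 to 4 and 910.3 in mouse 5. In miR-Ctrl BDL it had 128, 268, 417 and 344, and in anti-miR-873-5p BDL 183, 90.3, 286 and 328. Both BDL groups overlapped the first 4 no BDL mice, and mouse 5 was the highest of all. The miR-Ctrl BDL value on the log2 scale was -0.52 ± 0.44 (SE, adjusted p = 0.389) with all mice and -0.02 ± 0.31 (adjusted p = 0.960) without mouse 5. In anti-miR-873-5p BDL the values were -0.89 (adjusted p = 0.210) and -0.39 (adjusted p = 0.468). Saa4 was thus the 1 gene of the 10 whose level in BDL could not be separated from that of no BDL mice 1 to 4.

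Hp encodes haptoglobin, which binds free hemoglobin, and Hpx encodes hemopexin, which binds free heme. Per kilobase of the principal transcript these were the most abundant genes of the 10 in each group, with median levels of 2589 for Hpx and 1816 for Hp in no BDL and 9907 and 8287 in miR-Ctrl BDL. Hp (15439, chromosome 8 from 109575128 to 109579172) had 2246, 2104, 2443 and 2834 CPM in no BDL mice 1 to 4 and 12501 in mouse 5. It had 8357, 11600.2, 21239 and 10691 in miR-Ctrl BDL and 6479, 13516, 11008 and 10381 in anti-miR-873-5p BDL, so that the BDL groups overlapped and all BDL mice were above no BDL mice 1 to 4. The log2 fold change was 1.57 ± 0.59 (SE, adjusted p = 0.0620) in miR-Ctrl BDL and 1.24 ± 0.58 (adjusted p = 0.150) with the inhibitor, and without mouse 5 it was 2.45 ± 0.32 (adjusted p = 0.000640) and 2.13 ± 0.30 (adjusted p = 0.00292).

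Hpx (15458, chromosome 7 from 105591611 to 105600116) had 2964, 3452, 3881 and 3918 CPM in no BDL mice 1 to 4 and 15236 in mouse 5. The miR-Ctrl BDL mice had 12689, 12744, 29266 and 16958, and those given anti-miR-873-5p had 9325, 9707, 12180.5 and 10616. Hpx was the 1 gene of the 10 for which all miR-Ctrl BDL mice lay above all mice given the inhibitor, and how many of all genes did so was not counted. Hpx was called higher in miR-Ctrl BDL by 1.62 ± 0.54 on the log2 scale (SE, adjusted p = 0.0393), and by 2.35 ± 0.33 (adjusted p = 0.000835) without mouse 5. In anti-miR-873-5p BDL the change was 0.85 ± 0.50 (adjusted p = 0.256), and 1.59 ± 0.26 (adjusted p = 0.00429) without mouse 5. Counts of Hp were 0.610 to 0.821 times those of Hpx in no BDL, 0.630 to 0.910 times in miR-Ctrl BDL and 0.695 to 1.39 times in the mice given the inhibitor. Adjusted over the 9 tests of ratios, the exact permutation p was 0.746 for miR-Ctrl BDL and 0.143 for the inhibitor, each against no BDL, and 0.214 between the BDL groups.

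The orosomucoids are glycoproteins that bind small molecules in plasma. Orm1 (18405) lies on chromosome 4 from 63344556 to 63348163 and Orm2 (18406) from 63362449 to 63365877, and 20.4% and 22.7% of the 50-base windows of their transcripts occur in another gene, mostly in each other. Orm1 had 700.0, 764, 708 and 762 CPM in no BDL mice 1 to 4 and 3061 in mouse 5. It had 1987, 2925, 8209 and 3951 in miR-Ctrl BDL and 1655, 3638, 2285 and 2515 in anti-miR-873-5p BDL. The first 4 no BDL mice were tight and below every BDL mouse, and mouse 5 lay among the BDL mice. Orm1 was called higher in miR-Ctrl BDL by 1.85 ± 0.57 on the log2 scale (SE, adjusted p = 0.0289), or by 2.56 when mouse 5 was left out (SE 0.40, adjusted p = 0.00147). The anti-miR-873-5p BDL change was 1.09 ± 0.49 (adjusted p = 0.140), and 1.80 ± 0.25 (adjusted p = 0.00292) without mouse 5.

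Orm2 was the less abundant of the pair in each mouse. It had 96.8, 108, 102 and 106 CPM in no BDL mice 1 to 4, 1151 in mouse 5, 1149, 1767, 2984 and 2067 in miR-Ctrl BDL, and 807, 1055, 1161 and 1772 in anti-miR-873-5p BDL. Again all BDL mice were above the first 4 no BDL mice, and the BDL groups overlapped. Orm2 was called higher in miR-Ctrl BDL by 2.69 ± 0.83 (SE, adjusted p = 0.0292), or by 4.29 when mouse 5 was left out (SE 0.29, adjusted p = 6.29e-05). The change in anti-miR-873-5p BDL was 1.96 ± 0.80 (adjusted p = 0.108), and 3.57 ± 0.27 (adjusted p = 0.000513) without mouse 5. The calls of Hpx, Orm1 and Orm2 in miR-Ctrl BDL rested on few mice, since none of the 3 was called when any 1 of no BDL mice 1 to 4 or miR-Ctrl mouse 4 was left out, Orm1 alone was called without miR-Ctrl mouse 2, Orm2 alone without miR-Ctrl mouse 3, and Orm1 and Orm2 without miR-Ctrl mouse 1.

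Counts of Orm1 were set against those of Orm2 in the same way. The ratio was 7.23, 7.07, 6.92 and 7.19 in no BDL mice 1 to 4 and 2.66 in mouse 5. It was 1.73, 1.65, 2.75 and 1.91 in miR-Ctrl BDL and 2.05, 3.45, 1.97 and 1.42 in anti-miR-873-5p BDL, so that all BDL mice and mouse 5 lay below the first 4 no BDL mice. With all mice the mean log2 ratio differed from no BDL by -1.57 in miR-Ctrl BDL and by -1.47 with the inhibitor, each with an exact permutation p of 0.0317, or 0.0952 after adjustment over the 9 tests, which does not pass the threshold. Without mouse 5 the differences were -1.85 and -1.75, each with an adjusted exact permutation p of 0.0514. Between the BDL groups the difference was 0.10 (exact permutation p = 0.714).

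**Figure D3:**
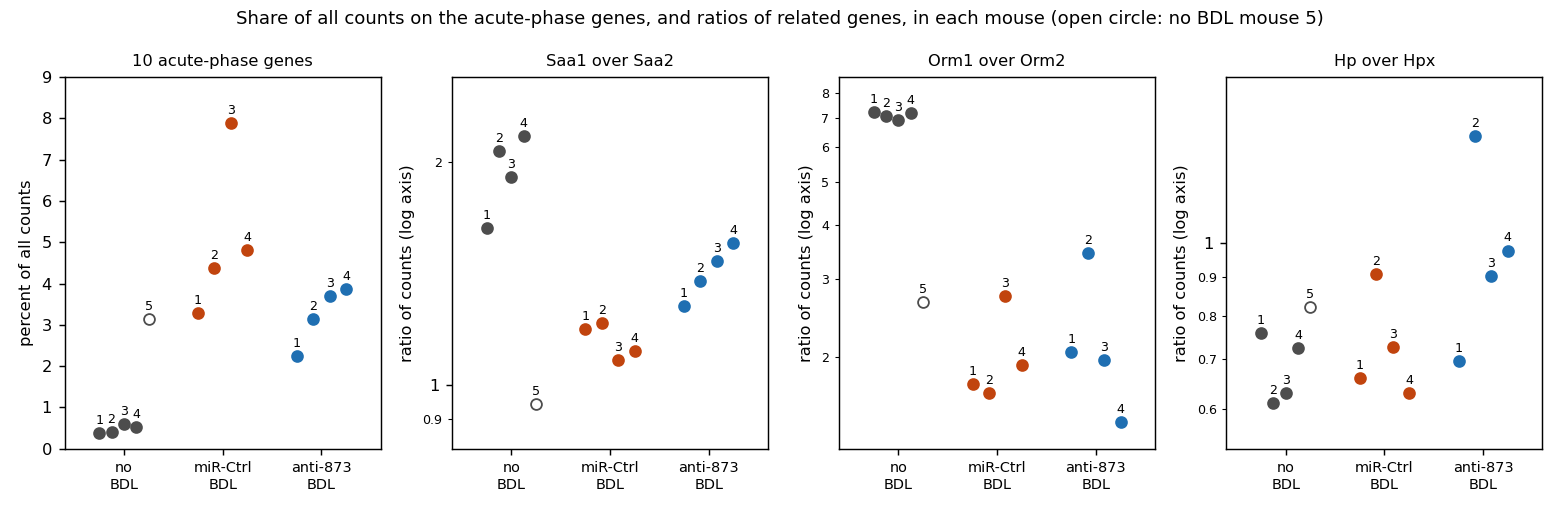
Percent of all counts on the 10 acute-phase genes (left, linear axis from 0) and ratios of counts of Saa1 over Saa2, Orm1 over Orm2 and Hp over Hpx (log axes) in each mouse, by group, with numbers naming the mouse and an open circle for no BDL mouse 5. The Orm1 over Orm2 ratio is 6.92 to 7.23 in no BDL mice 1 to 4 and at most 3.45 in the other mice.

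Lcn2, whose product binds bacterial iron carriers and is also stored in neutrophil granules, had the widest range of the 10 as a ratio of the highest to the lowest mouse. Lcn2 (16819, chromosome 2 from 32384637 to 32387739) had 4.92, 2.86, 5.67 and 8.55 CPM in no BDL mice 1 to 4 and 679 in mouse 5. It had 1592, 3017, 6606 and 2555 in miR-Ctrl BDL and 397, 2166, 1699.7 and 1903 in anti-miR-873-5p BDL. All BDL mice were far above no BDL mice 1 to 4, and 7 of 8 were above mouse 5. Relative to no BDL, Lcn2 had a log2 fold change of 4.63 ± 1.67 (SE, adjusted p = 0.0543) in miR-Ctrl BDL and 3.47 ± 1.6 (adjusted p = 0.148) with the inhibitor, and without mouse 5 it was 9.30 ± 0.64 (adjusted p = 6.29e-05) and 8.15 ± 0.67 (adjusted p = 0.000639). The latter correspond to 631-fold and 284-fold. The neutrophil marker sum also lay above its no BDL range of 8.68 to 23.9 CPM in every ligated mouse. It ran from 27.2 up to 305 with miR-Ctrl and from 26.9 up to 90.2 with the inhibitor. Whether neutrophils added to the level of Lcn2 was not tested.

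Apcs encodes serum amyloid P component, a pentraxin that binds amyloid and dead cells. Apcs (20219, chromosome 1 from 172893961 to 172895054) had 89.0, 61.0, 58.8 and 77.8 CPM in no BDL mice 1 to 4 and 449 in mouse 5. It had 140.4, 235, 632 and 225 in miR-Ctrl BDL and 105, 159, 240.4 and 157 in anti-miR-873-5p BDL, with all BDL mice above the first 4 no BDL mice and 7 of 8 below mouse 5. Apcs differed from no BDL on the log2 scale by 1.08 ± 0.68 (SE, adjusted p = 0.247) in miR-Ctrl BDL and 0.19 ± 0.62 (adjusted p = 0.851) with the inhibitor, and without mouse 5 it was 2.12 ± 0.42 (adjusted p = 0.00456) and 1.24 ± 0.25 (adjusted p = 0.0101).

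Set on one scale, as median CPM per kilobase of the principal transcript, the 10 genes were ordered within each group. In no BDL mice it ran Hpx 2589, Hp 1816, Orm1 983, Saa4 155, Orm2 137, Saa1 114, Apcs 80.1, Saa2 65.5, Saa3 7.26 and Lcn2 6.20, so that Lcn2 was last and Saa4 the most abundant serum amyloid A gene. In miR-Ctrl BDL the levels were Hpx 9907, Hp 8287, Orm1 4436, Saa1 3898, Saa2 3194, Lcn2 3045, Orm2 2474, Apcs 237, Saa4 146 and Saa3 111. With the inhibitor they were Hp 7952, Hpx 6779, Orm1 3097, Lcn2 1969, Orm2 1430, Saa1 1076, Saa2 716, Apcs 163, Saa4 112 and Saa3 46.0. The ranges over mice of neighbours in these orders overlapped except for Orm1 and Saa4 in no BDL, Orm2 and Apcs in miR-Ctrl BDL, and Hpx and Orm1 with the inhibitor, and the order was not tested. Without mouse 5 the order in no BDL was the same, and Hp and Orm1, at 1564 to 2107 and 903 to 985, and Saa2 and Saa3, at 35.4 to 69.6 and 3.89 to 9.13, did not overlap either.

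Promoters of 8 of the 10 genes were at hand, and 7 of the 8 held a match to TTGCNNAA on either strand within 250 bases before to 50 bases after the start, as did 10.8% of 32851 promoters of the same length. The exception was Apcs. The matches in Orm2, Lcn2 and Hpx, starting at -120, -216 and -200, are shown to set beside those of the SAA genes.
Orm2, chr4:63362318-63362347, plus strand: gagagaacattTTGCGCAAgacatttccca
Lcn2, chr2:32387937-32387966, minus strand: agcccttcctgTTGCTCAAccttgcacagt
Hpx, chr7:105600298-105600327, minus strand: tggctggaaatTTGCTGAAgggggtagggg
In all 7 patterns were searched. A second form of the C/EBP pattern, TTNNGNAAT, which can overlap the first, matched in Saa1, Saa2 and Orm2 and in 11.5% of all promoters. The STAT pattern TTCNNNGAA matched in Apcs, starting at -244, and in 8.30% of all promoters, and TATAAA matched in Orm2, at -33, and in 13.6% of all. Patterns for NF-kB, HNF1 and the glucocorticoid receptor matched in none of the 8 promoters and in 5.56%, 0.0091% and 0.475% of all. A match is a description of the letters, and binding was not measured.

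When the inhibitor was compared with miR-Ctrl in ligated mice, 0 of the 10 genes passed the test in the deposited table of 3 mice per group, and 0 of 13746 genes did, 0%, in edgeR, where 863 genes had an unadjusted p under 0.05 and DESeq2 called 31. The log2 fold change was negative for 9 of the 10, by -1.27 (standard error 0.62) for Saa1, -1.59 (0.65) for Saa2, -0.95 (0.56) for Saa3 and -0.85 (0.55) for Lcn2. It was -0.40 (0.25) for Hpx, -0.46 (0.29) for Orm1, -0.42 (0.34) for Orm2, -0.26 (0.33) for Apcs and -0.14 (0.29) for Hp, and it was 0.11 (0.37) for Saa4. Adjusted p values ran from 0.775 to 0.968, and 1 gene, Saa2, had an unadjusted p under 0.05. The median of the 10 was -0.44 and that of all genes 0.01. With 4 mice per group the changes were larger, to -2.19 for Saa1, -2.55 for Saa2 and -2.78 for Saa3, with adjusted p = 0.980 in edgeR for each. All 10 changes were then negative, Saa4 included at -0.38. The added miR-Ctrl mouse 3 had the highest CPM of all 8 BDL mice for all 10 genes. By library size alone mouse 4 of the inhibitor group was the highest for Saa4. The other added mouse, number 2 of the inhibitor group, had the lowest Saa1, Saa2 and Saa4 of its group and the highest Lcn2, Hp and Orm1.

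The inhibitor targets mmu-miR-873a-5p, whose mature form is encoded on chromosome 4 and is shown with its seed, bases 2 to 8, in capitals because target sites pair with the seed.
mmu-miR-873a-5p, chr4:36668556-36668576, minus strand: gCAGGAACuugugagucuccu
The complement of the seed, GTTCCTG, occurs in the 3′ untranslated region of a GENCODE transcript for 1 of the 10 genes, Saa3, and for 17.2% of 21166 genes.

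Over the 13 mice, the 3 genes whose levels ran most like those of each of the 10 were found. Pearson's r of log2(CPM + 1) is given as a description, without a p, since all points share the same mice, among them no BDL mouse 5. The closest were Steap4 to Saa1 and Saa2 (r = 0.954 and 0.950), Ifitm2 to Saa3 (0.944), Ccl6 and Cxcl14 to Lcn2 (both 0.979), Lrg1 to Hp (0.984), Fgl1 to Hpx (0.971), Orm3 to Orm1 (0.982), Cxcl14 to Orm2 (0.978) and Slc37a1 to Apcs (0.971). Next came Gsdmd and Fas (0.942 each) for Saa1, Fas (0.944) and Tlr2 (0.938) for Saa2, Hip1r (0.925) and Irak3 (0.922) for Saa3, Cyb561 (0.977) for Lcn2 beside the 2 named, Orm3 (0.979) and Fgl1 (0.977) for Hp, Map7d1 (0.967) and Litaf (0.963) for Hpx, Dap and Itih3 (0.970 each) for Orm1, Orm3 (0.977) and Ccl6 (0.973) for Orm2, and Slc41a2 (0.951) and Hip1r (0.950) for Apcs. For Saa4 the closest were Mobp (0.925), Crp (0.898) and Znrf1 (0.849), and its r with Lcn2 was -0.08. Mobp had only 0.48 to 3.42 CPM over the 13 mice. Saa1 and Saa2 had r = 0.998 with each other, and Lcn2 and Orm2 0.988.

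Other genes of the response were counted from lists, to be read beside the shares of all genes called above. Of 25 tested genes for further acute-phase proteins, 9 rose and 2 fell in miR-Ctrl BDL, and 16 rose and 2 fell without mouse 5, with medians of 1.30 and 1.70 on the log2 scale. With the inhibitor 6 rose and 2 fell, or 14 and 2 without mouse 5, with medians of 0.76 and 1.35. Among the genes that rose in miR-Ctrl BDL were Cd14, a receptor for bacterial endotoxin (6.33, adjusted p = 0.00155), Il1rn, the antagonist of the interleukin-1 receptor (5.00, adjusted p = 0.00844), and Orm3 (2.28, adjusted p = 0.0115). Without no BDL mouse 5 these values were 7.30, 6.18 and 3.09, and without miR-Ctrl mouse 3 Cd14 was 4.73 and Il1rn 2.82, all of them called. Of 20 plasma proteins listed as falling in the acute phase, 9 fell and 1 rose in miR-Ctrl BDL, with or without mouse 5 (medians -0.69 and -0.71). With the inhibitor 5 fell and 0 rose, or 5 and 1 without mouse 5 (medians -0.52 and -0.54). Serpina6, the carrier of corticosteroids, fell by 2.91 in miR-Ctrl BDL (adjusted p = 0.0132; -3.52 without miR-Ctrl mouse 4), Ttr, the transthyretin gene, by 2.14 (adjusted p = 0.000212), Apoa2 by 1.93 (adjusted p = 0.000238) and Serpina1b by 1.77 (adjusted p = 0.000494). The falls of the last 3 were also called with the inhibitor. No BDL mouse 5 had 5687 CPM of Ttr and the other 4 had 5666 to 7811, so that it lay within its group for this gene, while BDL mice had 1002 to 3067. For Serpina1b it also lay within its group, at 18794 against 16664 to 22142. For Apoa2 and Serpina6 it was the lowest no BDL mouse, at 5002 against 5731 to 7836 and at 109 against 146 to 343. None of these changes, nor those of the lists below, was called between the BDL groups by edgeR.

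**Figure D4:**
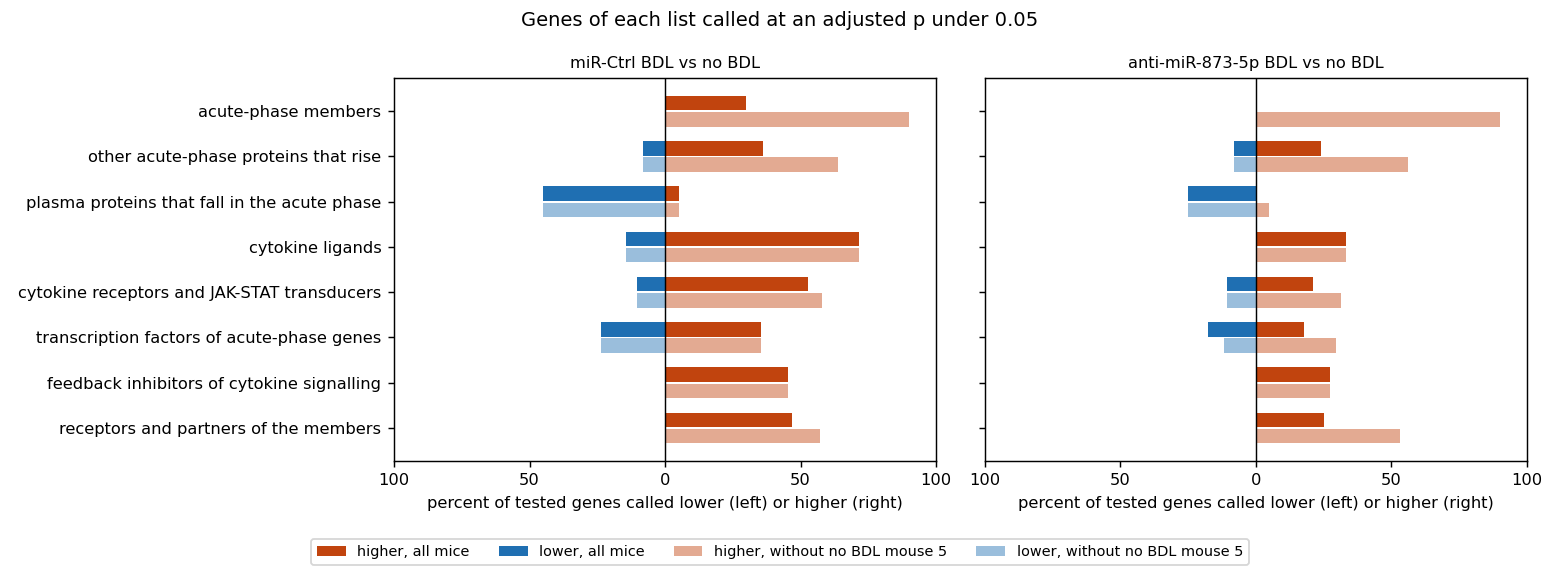
Percent of the tested genes of each list called lower (to the left, blue) or higher (to the right, red) at an adjusted p under 0.05 against no BDL, for each BDL group. Full colours use all mice and pale colours leave out no BDL mouse 5, which raises the share of the 10 acute-phase members called higher from 3 and 0 of 10 to 9 of 10 in both.

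Among the cytokines that drive the response, Il6 had at most 1 read in any no BDL mouse, 0, 4, 14 and 4 reads in miR-Ctrl BDL and 1, 0, 3 and 3 in anti-miR-873-5p BDL, and was below the filter. Osm, oncostatin M, had 0 reads in all no BDL mice and 2 to 28 in miR-Ctrl BDL and 0 to 5 in anti-miR-873-5p BDL. Tnf had 1 to 3 reads in no BDL, 16 to 86 in miR-Ctrl BDL, where it was called higher by 4.29 on the log2 scale (adjusted p = 0.00111), or 3.55 without miR-Ctrl mouse 3, and 3 to 38 in anti-miR-873-5p BDL, where it was below the filter. No BDL mouse 5 had 0 reads of Il6 and Osm and 2 of Tnf, with 85810 of Saa1. Of 11 listed ligands, 7 passed the filter in miR-Ctrl BDL, where 5 rose and 1 fell, and 6 with the inhibitor, where 2 rose, with or without mouse 5. The tested sets differ, since Tnf passed only through the miR-Ctrl mice, where its reads were high. The 2 counts therefore cannot be set against each other. Lif, a ligand of the interleukin-6 family, rose in the respective BDL groups by 4.53 (adjusted p = 0.000499) and 3.87 (adjusted p = 0.00115), the former being 3.87 without miR-Ctrl mouse 2. Clcf1, of the same family, was called higher in the same order by 2.68 (adjusted p = 0.000592) and 2.58 (adjusted p = 0.00199). The miR-Ctrl BDL value for Il1b was 2.45 (adjusted p = 0.0345), but it was 1.11 without miR-Ctrl mouse 3 (adjusted p = 0.126), and it also missed the threshold without any 1 of no BDL mice 1 to 4. With the inhibitor the Il1b value was 0.76 (adjusted p = 0.420), and the difference between the BDL groups was not called.

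Of 19 cytokine receptors and JAK-STAT transducers 10 rose and 2 fell in miR-Ctrl BDL, or 11 and 2 without mouse 5, and 4 rose and 2 fell with the inhibitor, or 6 and 2 without mouse 5. Osmr, the oncostatin M receptor, rose by 2.51 (adjusted p = 0.00327) and Il22ra1, a receptor chain for interleukin-22, by 1.80 (adjusted p = 0.00127) in miR-Ctrl BDL, while Lifr fell by 2.77 (adjusted p = 0.000129) and Il1rap, which completes the interleukin-1 receptor, by 1.75 (adjusted p = 0.000108). Stat3 had 93.7 to 129.6 CPM in no BDL mice 1 to 4, 190.5 in mouse 5 and 115 to 319 in BDL mice. The Stat3 difference from no BDL was 0.62 (adjusted p = 0.132) in miR-Ctrl BDL, and 0.84 (adjusted p = 0.0403) without mouse 5, and 0.26 (adjusted p = 0.450) with the inhibitor. Of 17 transcription factors 6 rose and 4 fell in miR-Ctrl BDL, with or without mouse 5, and 3 rose and 3 fell with the inhibitor, or 5 and 2 without mouse 5. Relb rose by 2.77 (adjusted p = 0.000472), Nfkbiz by 1.69 (adjusted p = 0.000836), Nfkb2 by 1.62 (adjusted p = 0.0164) and Cebpd, a C/EBP factor, by 2.00 (adjusted p = 0.00574) in miR-Ctrl BDL, while the value for Cebpb was 0.43 (adjusted p = 0.444). Of 11 feedback inhibitors 5 rose in miR-Ctrl BDL and 3 with the inhibitor, with or without mouse 5, among them in miR-Ctrl BDL Socs1 (3.56, adjusted p = 0.0225), Tnfaip3 (3.40, adjusted p = 0.000284), Socs3, which damps signalling through STAT3 (2.82, adjusted p = 0.0100), and Nfkbia (1.13, adjusted p = 0.00845). Without miR-Ctrl mouse 3 the value was 1.63 for Socs3 and 1.40 for Cebpd, both called, and 2.27 for Socs1 (adjusted p = 0.0563), whose call was also lost without no BDL mouse 1 or 2.

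Genes whose products receive or process the 10 proteins were also counted. Of 15 tested receptors and partners 7 rose in miR-Ctrl BDL, or 8 of 14 without mouse 5, and of 16 tested 4 rose with the inhibitor, or 8 of 15 without mouse 5. Hmox1, the heme oxygenase that degrades heme, had 9.37 to 15.1 CPM in no BDL mice 1 to 4, 33.2 in mouse 5, 45.1 to 144 in miR-Ctrl BDL and 27.2 to 79.0 with the inhibitor. On the log2 scale Hmox1 was called higher by 2.46 (adjusted p = 0.00192) and 1.95 (adjusted p = 0.0107). Mmp9, a protease that forms a complex with lipocalin 2, rose by 3.13 (adjusted p = 0.00464), Fpr2, a receptor for serum amyloid A, by 2.72 (adjusted p = 0.00897) and Fcgr1, an Fc receptor that binds pentraxins, by 2.35 (adjusted p = 0.00640) in miR-Ctrl BDL. Without no BDL mouse 5 Mmp9 was 3.94 and Fcgr1 2.95, and without miR-Ctrl mouse 3 Fpr2 was 1.98, each called. Every gene named from the lists that was called in miR-Ctrl BDL was also called there without mouse 5.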

How the data were processed

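Liver RNA of 13 mice was sequenced as single reads of 50 nt, mapped to mm10 with TopHat, and deposited by the authors as raw counts per Entrez gene in 3 tables. The counting program is not given in the sources used here. The supplement states that outliers were filtered, without naming them. All columns of values were used. Mice were grouped by their labels.

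Counts were analysed with edgeR 4.0.16 in R 4.3.3 (filterByExpr, TMM, quasi-likelihood test, Benjamini-Hochberg adjustment over all genes, adjusted p of 0.05), with DESeq2 1.42.0 as an alternative. CPM levels of the 13 mice used the 22246 genes whose counts are identical in the tables. Fold changes come from each comparison's own table. Tested on simulated counts with 200 genes changed by 2 on the log2 scale, the test recovered 87.0%, 93.0% and 90.5% for miR-Ctrl BDL and for the inhibitor, each against no BDL, and for the BDL groups. Standard errors are the fold change over the root of F.

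The members, gene lists and tests were chosen with earlier results of these data known. Named beside the members are up to 4 called genes per list with the largest change in miR-Ctrl BDL, plus Il6, Il1b, Tnf, Osm, Stat3, Socs3, Cebpb, Cebpd and Hmox1, and for each member the 3 genes most alike. The result of 1 gene that this rule names is not reported here. Alternatives were other scalings, filters, tests and thresholds, 1 fit of all groups, the mouse number as a block, and each mouse left out. Leaving out no BDL mouse 5 together with another change was added after the data were seen. Symbols, spans and promoters are from RefSeq (GRCm38.p6, 23666 identifiers matched) and transcripts from GENCODE M21. Transcript length is that of the principal transcript.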

Additional observations from a re-analysis of the deposited data

Results flagged for a closer look

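In 42 groups of 4 or 5 values, the gap of the highest or lowest mouse to its neighbour, as a share of the group's range, was compared with Dixon's 95% critical value (0.829 for 4 mice, 0.710 for 5). In 13 of them 1 mouse was past it, where chance flags about 1 in 20, and the 10 genes are not independent of each other. No BDL mouse 5 accounted for 12. Its levels in CPM were 6823 for Saa1, 7241 for Saa2, 357 for Saa3, 910.3 for Saa4, 679 for Lcn2, 12501 for Hp, 15236 for Hpx, 3061 for Orm1, 1151 for Orm2 and 449 for Apcs, its share of all counts on the 10 genes was 3.14%, and its ratio of Orm1 to Orm2 was 2.66. The remaining 1 was miR-Ctrl mouse 3, with 575 CPM of Saa3. This mouse also had 305 CPM summed over the neutrophil markers, where the other 3 of its group had 27.2 to 83.9.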

How the results depend on the processing

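Scaling set how many genes were called. Against no BDL, 2491 genes were called higher and 2175 lower in miR-Ctrl BDL, and by library size alone 9360 and 275, 9635 in all, while library size without the 20 most abundant genes gave 5250 and 732. In anti-miR-873-5p BDL 1715 and 1108 became 10063 and 131 (10194 in all) and 4410 and 335 (4745 in all). Members called in miR-Ctrl BDL went from 3 to 6 by library size alone, to 5 without the top 20 genes, in DESeq2, at an adjusted p of 0.1 and with all 3 groups in 1 fit, and to 9 with the mouse number as a block. Of all genes, 9360 and 5250 of 13072 were called higher by the first 2 settings and 3070 of 18087 in DESeq2. It was 2996 of 13072 at an adjusted p of 0.1, 2427 of 12984 in 1 fit and 2168 of 13010 with the block. In anti-miR-873-5p BDL the members called went from 0 to 5, 2 and 9 by library size alone, without the top 20 genes and with the block, beside 10063 and 4410 of 13130 and 1442 of 13031 genes. By library size alone the share of members was below that of all genes in both comparisons. The block drops no BDL mouse 5, which has no partner, and gave 4053, 2187 and 0 called genes. Deviations from the group mean had r from -0.39 to 0.57 in same-numbered mice and from -0.51 to 0.70 in other pairs. No pairing by number was seen, and so few mice cannot exclude one. With no BDL mouse 5 left out in DESeq2, or together with the BDL mouse absent from the table of both BDL groups, 9 members were called in each comparison, with 4819 genes called by the latter in anti-miR-873-5p BDL. Genes called higher were 3134 of 18009 and 2547 of 18281 by the former, and 3156 of 13349 and 2748 of 13446 by the latter. DESeq2 called 31 genes between the BDL groups and 0 members.

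Leaving out each mouse gave 3775 to 5710, 1261 to 4317 and 0 to 1 called genes in the 3 comparisons, and 0 to 9, 0 to 9 and 0 to 0 members. The 9 came from leaving out no BDL mouse 5. Genes called in anti-miR-873-5p BDL fell to 1261 without its mouse 3, to 1392 without mouse 4 and to 1713 to 1824 without any 1 of no BDL mice 1 to 4, and rose to 4317 without its mouse 2.

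Between the anti-miR-873-5p group and no BDL mice, directions reversed for Saa1 (-1.63 to 3.16 with a mouse left out, 2.94 with the block, 3.16 without mouse 5, 3.47 also without anti-miR-873-5p mouse 2, 3.14 in DESeq2 without mouse 5), Saa2 (-2.20 to 3.60 with a mouse left out, 3.39, 3.60, 3.91 and 3.58) and Saa3 (-1.83 to 2.86 with a mouse left out, 2.82, 2.86, 2.76 and 2.86). Saa4 was 0.00036 by library size alone, and Apcs ran from -0.056 without anti-miR-873-5p mouse 3, through -0.041 and -0.0047 without no BDL mice 3 and 2, to 1.24 without mouse 5. In miR-Ctrl BDL Saa3 was -0.65 and Cebpb -0.19 without miR-Ctrl mouse 3 (with a mouse left out, up to 5.62 and 0.61), Cebpb -0.185 without this mouse and no BDL mouse 5, and Saa4 0.26 by library size alone. Between the BDL groups Saa4 was -0.38 with all 3 groups in 1 fit or with 4 mice per group, -0.20 without miR-Ctrl mouse 1 (up to 0.41 without another mouse) and -0.072 without inhibitor mouse 4, and Hp was 0.057 without inhibitor mouse 1 (down to -0.28 without another). The log2 ratio of Orm1 to Orm2 between the BDL groups was -0.14 when mouse 2 of the inhibitor group was left out, over a range of -0.14 to 0.29, and that of Hp to Hpx in miR-Ctrl BDL against no BDL was -0.011 and -0.070 without mouse 2 of either group, over -0.07 to 0.11. No adjusted p of a ratio passed 0.05 under any alternative. By library size alone the mean level of Hpx in anti-miR-873-5p BDL was 13365.9 CPM in place of 10457, and the other 29 group means moved by less than 1 SD. The order of mice also depended on scaling. By library size alone miR-Ctrl mouse 3 passed no BDL mouse 5 for Saa1 and Saa2. For Saa4 it had 448 and mouse 4 of the inhibitor group 475. The cause of these changes beyond the settings themselves was not tested.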
